A study of Mus musculus with 2 samples.

Results

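Ribosome assembly begins in the nucleolus, where RNA polymerase I transcribes the precursor of most ribosomal RNA. Large assembly complexes, small nucleolar ribonucleoproteins (snoRNPs) and helicases then modify, fold and cut that precursor into the small and large ribosomal subunits. The transcription factor Myc is known to activate many of these genes, often through the E-box sequence in their promoters, and the pathway is most active in cells that grow. The genes described here were picked by symbol from the array's annotation: the families Utp, Nop, Rrp and Nol, the subunits Polr1a to Polr1f, named nucleolar proteins such as nucleolin (Ncl), nucleophosmin (Npm1) and fibrillarin (Fbl), and Myc. They came to 122 of 45037 probe sets, the groups of short probes that each report 1 transcript, and to 56 of 18194 genes. The choice was made with earlier results of these arrays known, so the counts below are descriptions and not tests. The symbols also catch Nol3 and Nol4, which share the nucleolar name but are not assembly factors.

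The cells were labelled bEnd3, a transformed BALB/c mouse line from microvessels of the cerebral cortex that carries polyoma middle T antigen. They were infected with retrovirus that delivered either an siRNA against Smad4, the Smad that transcription complexes of the TGF-beta and BMP pathways share, or a control siRNA, and both groups were selected with puromycin. RNA from 2 infections was pooled for the 1 array of each group, Smad4-siRNA and Control-siRNA. They are called the Smad4-labelled array and the control array below. There are thus no replicates, and precision is limited by the number of arrays. A technical error was taken from genes with 2 or more probe sets measured on both arrays: the pooled SD of their log2 ratios was 0.47 across 4546 genes and 0.48 across the 29 members of this kind. That SD does not cover the spread between cultures or arrays.

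The arrays also differed in ways that their labels do not give. Smad4 itself was not lower on the Smad4-labelled array, with log2 ratios of 0.25 to 0.58 in its 3 probe sets (-0.12 to 0.21 for the values as deposited). The words lower and higher below therefore describe that array against the control array and say nothing of what depletion of Smad4 does. Xist was high only on the Smad4-labelled array (signal 4476 against 20.7), and the Y-linked Eif2s3y only on the other (324 against 0.349). Kdm5d and Uty, also Y-linked, had signals of 122 and 112 on the control array in their brightest probe sets. On the Smad4-labelled array these were 4.69 and 4.03. Of 15 endothelial markers, 14 were at least 2-fold lower on the Smad4-labelled array, where 9 lay below the floor, and their summed signal was 781 against 22524. Nos3 and Ptprb had the lowest log2 ratios of those measured on both arrays (-6.68 and -5.26), and Eng and Kdr the highest (-0.56 and -4.71). Most fibroblast markers went the other way: 8 of 11 were higher there by 2-fold or more. On the control array 9 lay below the floor, and Lum, Mfap5 and Thy1 did so on both arrays. The summed signal of the 11 was 22546 against 187. Pdgfra and Fbln2, the fibroblast markers measured on both arrays, had log2 ratios of 2.86 and 6.30. The part of these differences in the values below was not tested. Whether both arrays hold cells of the same line was not tested either, so the ratios below need not be differences within a line. In RNA from whole cultures, fewer cells of a type cannot be told apart from less RNA per cell.

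Most ribosome assembly genes were lower on the Smad4-labelled array. Signals were quantile normalized, each gene was represented by its brightest probe set, and a signal at or above the array median of 22.8, called the floor, counted as measured. All 56 genes reached the floor on at least 1 array and 53 on both. Of the 56, 31 were at least 2-fold lower, 1 was at least 2-fold higher and 24 lay within 2-fold. Over all genes with a signal at the floor, 15.8% were at least 2-fold lower and 16.0% at least 2-fold higher. The median log2 ratio of the members was -1.07, against -0.14 for all such genes. Among the 53 measured on both arrays, 47 had a log2 ratio below 0, as did 57.1% of all genes measured on both. On that scale 22 of the 53 lay in the lowest 10% of all genes and 38 in the lowest 25%.

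The differences were of moderate size and spread over the whole set. Among genes measured on both arrays that were at least 2-fold lower, folds ran from 2.02 (Utp4) to 6.50 (Rrp9). The 24 genes within 2-fold had log2 ratios from -0.97 (Wdr12) to 0.70 (Rrp7a), and 18 of them were below 0. Brighter and dimmer members were both lower: the 27 members with a mean signal of at least 314 had a median log2 ratio of -1.01 and the 26 below it one of -1.39. All genes in these signal ranges had medians of -0.14 and -0.15.

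**Figure D1:**
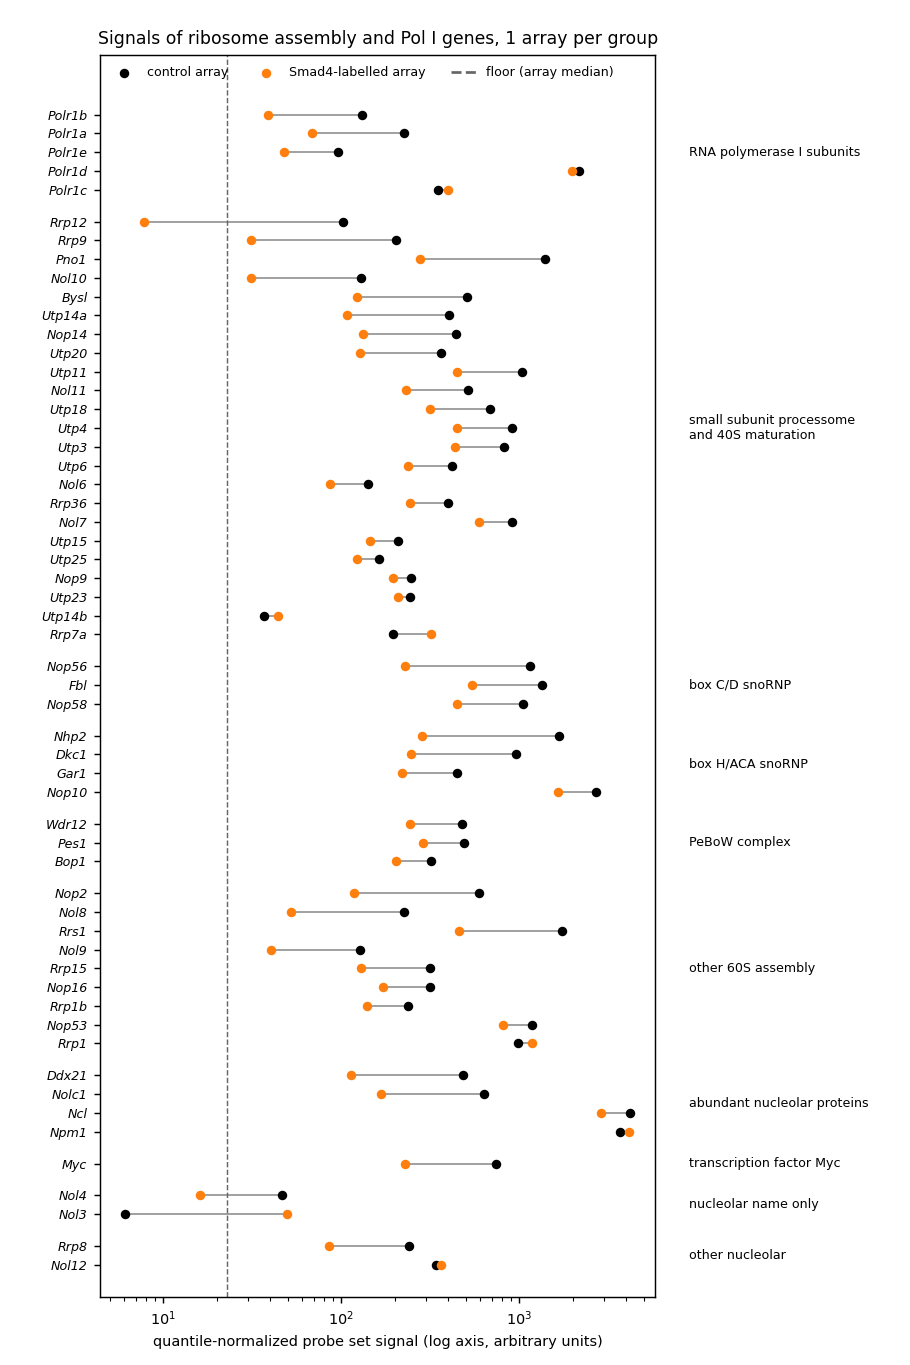
Quantile-normalized signal (log axis, arbitrary units) of the brightest probe set of each of the 56 genes, with black points for the control array, orange points for the Smad4-labelled array and a dashed line at the floor of 22.8. The orange point lies left of the black one for 47 of the 53 genes measured on both arrays. Distances between the points of a gene can be read, but levels of different genes cannot be compared, since probe sets differ in brightness.

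Of the 5 RNA polymerase I subunits with a Polr1 symbol, 3 were at least 2-fold lower. Polr1a, the largest subunit and part of the catalytic centre, had a signal of 68.6 (Smad4-labelled array) against 224 (control array), 3.27-fold lower. Its other probe sets measured on both arrays gave log2 ratios of -1.65 and -0.78. Pairs of signals below give the Smad4-labelled array first. Polr1b, the second largest subunit, had signals of 38.5 and 131 (3.40-fold lower). Polr1e, a subunit outside the catalytic core, had 47.5 and 96.4, a log2 ratio of -1.02 that was -0.94 as deposited. It thus lay at the 2-fold border. Polr1c and Polr1d, which RNA polymerase III also uses, were within 2-fold. Polr1c had signals of 400 and 349 and Polr1d of 1980 and 2154, with log2 ratios of 0.20 and -0.12 (-0.15 and -0.43 as deposited). The probe sets of Polr1d disagreed: 3 had log2 ratios from -0.12 to 0.16, whereas the other had signals of 460 and 1706 and a log2 ratio of -1.89. Once probe sets with suffixes for shared sequence are left out, it stands for the gene as the brighter of those that remain, and the dimmer one had signals of 844 and 757 (log2 ratio 0.16). The genes of polymerase I initiation lay mostly within 2-fold after quantile normalization. Of 10, 1 (Cd3eap, itself a polymerase I subunit) was at least 2-fold lower, 0 were higher, and the median log2 ratio was -0.85. As deposited, 5 of the 10 were at least 2-fold lower, and with the median of a gene's probe sets 3 were. Cd3eap and Taf1c, of the promoter selectivity factor, had the lowest log2 ratios (-1.97 and -0.99). Ttf1, the termination factor, and Taf1b had the highest (0.29 and 0.11). The 9 RNA polymerase III subunits measured had a median of -0.75 with 2 lower, from -1.51 (Polr3f) and -1.03 (Polr3b) to -0.01 (Polr3k) and 0.17 (Polr3gl). Their count at least 2-fold lower ran from 0 to 2 over every processing tried. Over all genes with a signal at the floor, 15.8% were at least 2-fold lower, so the shares in these 2 lists were near that of all genes.

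The small subunit processome, the particle that folds the pre-ribosomal RNA for the small subunit, was the largest group, together with factors that finish that subunit. Of its 23 genes, 12 were at least 2-fold lower, 0 were higher and 11 lay within 2-fold, with a median log2 ratio of -1.01. Rrp12, needed for export of the small subunit, was below the floor on the Smad4-labelled array (7.83 against 103) and at least 4.51-fold lower. Rrp9, a protein of the snoRNP on which the processome is built, had signals of 31.3 and 204 (6.50-fold lower). Pno1 and Bysl act late on the small subunit. Pno1 had signals of 278 and 1387 (4.99-fold lower). Bysl had 123 and 506 (4.10-fold lower), and its other probe set was below the floor on the Smad4-labelled array (20.8 against 279).

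Subunits of the processome made up the rest of the genes that were at least 2-fold lower. Nol10 had signals of 31.2 and 130 (4.15-fold lower), Utp14a, which works with a helicase, 108 and 403 (3.74-fold), and Nop14 132 and 441 (3.35-fold). Utp20, a long scaffold protein, had 127 and 363 (2.86-fold). Utp11 had signals of 448 and 1032 (2.30-fold), Nol11 230 and 515 (2.24-fold), Utp18 315 and 684 (2.17-fold) and Utp4 449 and 906 (2.02-fold). Nol11 and Utp4 belong to the module that joins polymerase I transcription to processing. All 4 probe sets of Nol11 were below 0 (log2 ratios of -1.53 to -0.61), while Utp4, with 1 probe set, was within 2-fold once a trend on signal was removed (-0.94).

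The 11 genes within 2-fold were mostly lower too. Utp3 had signals of 438 and 819, Utp6 of 236 and 421, Nol6 of 86.4 and 142, Rrp36 of 242 and 396, and Nol7 of 595 and 914, with log2 ratios of -0.90 to -0.62. Utp15 had signals of 145 and 208, Utp25 of 122 and 163, Nop9 of 196 and 245 and Utp23 of 208 and 244, with log2 ratios of -0.52 to -0.23. These 9 genes all lay below 0, although Utp6 and Nol7 each had 1 probe set on the other side (0.22 and 0.27). A further probe set of Nol7 was below the floor on the Smad4-labelled array (20.7 against 79.1) and at least 3.47-fold lower. The dimmer probe set of Utp15 was also past 2-fold (log2 ratio -1.12). The last members of the group were above 0. Rrp7a had signals of 318 and 196 and a log2 ratio of 0.70, but a dimmer probe set gave -0.64. Utp14b, a gene copy of Utp14a known for its role in male germ cells, had signals of 43.9 and 37.0 (log2 ratio 0.24), near the floor.

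Proteins of the snoRNPs, particles that chemically modify ribosomal RNA, were at least 2-fold lower in 6 of 7 genes. In the box C/D particles, which methylate ribose, all 3 genes were at least 2-fold lower. Nop56 had signals of 227 and 1149 (5.06-fold), the methyltransferase Fbl 545 and 1343 (2.47-fold) and Nop58 444 and 1043 (2.35-fold). The second probe set of Fbl gave a smaller difference (563 and 1062, log2 ratio -0.92). In the box H/ACA particles, which convert uridine to pseudouridine, 3 of 4 were at least 2-fold lower. Nhp2 had signals of 284 and 1671 (5.88-fold) and the pseudouridine synthase Dkc1 246 and 957 (3.89-fold). All probe sets of both genes were at least 2-fold lower. Gar1 had 221 and 447 in its only probe set, a log2 ratio of -1.02 that was -0.91 once a trend on signal was removed, so it sat at the border. Nop10, the smallest protein of the particle, had 1654 and 2711 and a log2 ratio of -0.71.

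Factors of the large subunit split between clear and small differences. The PeBoW complex, which acts on the large subunit's precursor RNA, had 0 of 3 genes at least 2-fold lower by the brightest probe set. Wdr12 had signals of 243 and 475 (log2 ratio -0.97), Pes1 286 and 490 (-0.78) and Bop1 204 and 321 (-0.65). Wdr12 and Pes1 were past 2-fold as deposited (-1.27 and -1.10), and the second probe set of Pes1 gave -2.31 (30.5 and 151). That of Wdr12 was below the floor on the Smad4-labelled array (21.2 and 69.6) and at least 3.06-fold lower. With the median of a gene's probe sets in its place, Wdr12 and Pes1 were at least 2-fold lower and the PeBoW median was -1.34. Of 9 other genes of the large subunit, 5 were at least 2-fold lower and 0 higher, with a median of -1.30. The RNA methyltransferase Nop2 had signals of 117 and 592 (5.04-fold), Nol8 52.0 and 225 (4.32-fold), and Rrs1, which helps to bring the smallest ribosomal RNA into the subunit, 460 and 1743 (3.79-fold). Nol9, a polynucleotide kinase that trims the spacer, had 40.1 and 127 (3.17-fold) and Rrp15 129 and 317 (2.46-fold). The other Nol9 probe set measured on both arrays was within 2-fold (23.6 and 38.6, log2 ratio -0.71). Nop16 (172 and 314), Rrp1b (139 and 237) and Nop53 (811 and 1178) lay within 2-fold, with log2 ratios of -0.86, -0.77 and -0.54. Rrp1 went the other way, with 1186 and 982 and a log2 ratio of 0.27, but -0.14 as deposited.

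The abundant nucleolar proteins split, with 2 of 4 genes at least 2-fold lower. The RNA helicase Ddx21 had signals of 113 and 482 (4.27-fold lower) and Nolc1, a chaperone of snoRNPs, 168 and 632 (3.77-fold lower). Their 5 probe sets were all at least 2-fold lower. Ncl, which binds nascent ribosomal RNA, had 2884 and 4186 (log2 ratio -0.54), with dimmer probe sets reaching -1.56. Npm1, the histone and ribosome chaperone of the granular nucleolus, had 4159 and 3664 (0.18), and -0.13 in its other probe set. Processed copies of Npm1 in the genome could share its probes. Rrp8, a methyltransferase of ribosomal RNA, was 2.81-fold lower (85.6 and 240), and Nol12, a nucleolar RNA-binding protein, had signals of 361 and 338 and a log2 ratio of 0.10.

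The genes that share only the nucleolar name were dim. Nol3, an inhibitor of apoptosis, had signals of 49.3 and 6.12, the second under the floor, and was at least 2.16-fold higher, the 1 member that was higher by 2-fold. Nol4, known from neurons, had signals of 16.0 and 46.2, the first under the floor, and was at least 2.03-fold lower. For the values as deposited Nol4 no longer passed 2-fold.

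Different probe sets of a gene mostly gave the same direction. Of 95 member probe sets measured on both arrays, 85 were below 0, 49 at least 2-fold lower and 0 at least 2-fold higher. Among the 29 genes with 2 or more such probe sets, all were below 0 in 22, against 43.2% of the 4546 genes of this kind on the arrays. All were at least 2-fold lower in 9 of the 29, against 7.39%. In no gene were all above 0, and 7 genes (Utp6, Nol7, Polr1d, Npm1, Polr1c, Rrp1 and Rrp7a) had both signs.

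**Figure D2:**
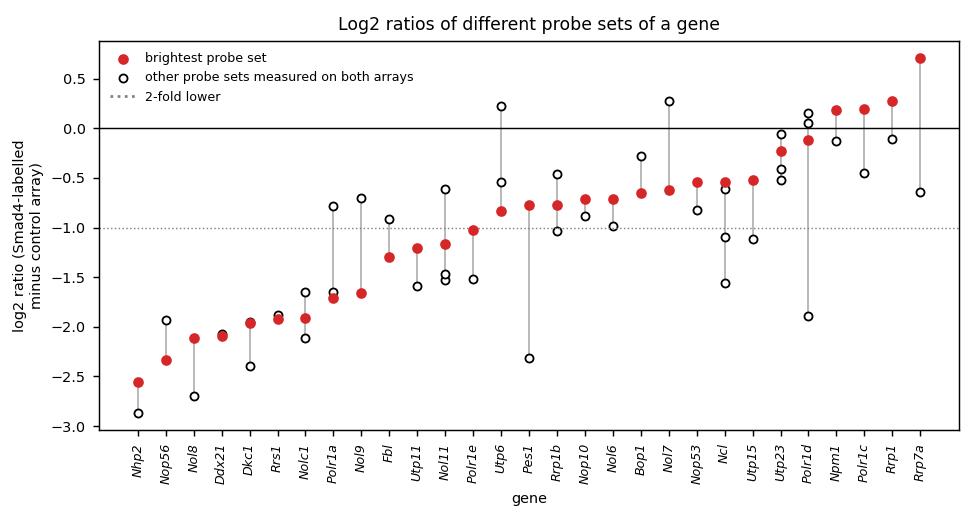
Log2 ratio (Smad4-labelled array minus control array) of each probe set measured on both arrays, for the 29 genes with 2 or more of them, ordered by the brightest probe set (red) with the others in white. In 22 genes every point lies below 0, and Polr1d and Pes1 show 1 probe set far below the rest.

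Myc was lower along with these genes. Its only probe set had signals of 228 and 736, 3.23-fold lower, and passed 2-fold under each scaling. The genes of its network that were listed went both ways. Of the 11 with a signal at the floor, which are partners and antagonists of Myc and its paralogue Mycn, 0 were at least 2-fold lower and 2 (18.2%) were higher. Over all genes with such a signal the shares were 15.8% and 16.0%. The median log2 ratio of the 11 was 0.28. Among those measured on both arrays, Mga and Mlx had the lowest log2 ratios (-0.65 and -0.52), and the Max-binding repressors Mxd3 and Mxi1 the highest (1.67 and 0.94). Mxd1, another such repressor, was measured on the Smad4-labelled array alone and was at least 3.62-fold higher, with signals of 82.4 and 17.0. Mycn, the paralogue of Myc, had signals of 3480 and 3213 (log2 ratio 0.12, and -0.10 as deposited). Mxd1 and Mycn were named after their values were seen.

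Because most members and Myc were lower, the members' promoters were searched for the E-box CACGTG, which reads the same on both strands. RefSeq start sites (GRCm38.p6) were available for 43 of the 56 genes, in windows of 250 bases before to 50 after the start. The E-box was in a window of 10 of the 43 genes (23.3%), and of 8.91% of 17491 protein-coding genes. These were Nol11, Nop2, Pes1, Pno1, Rrp7a, Utp14b, Utp18, Utp20, Utp25 and Utp4. Their median log2 ratio was -1.07 and that of the 33 genes without it -1.23, given with no test. The genes above 0 in the small subunit group, Rrp7a and Utp14b, also hold it. Shown are stretches of 100 bases before the start, 5′ to 3′ on the gene's strand and with the E-box in capitals, for 3 lower genes (Nop2, Nol11 and Utp18) and for the 2 genes above 0. Nop2 lies at chr6:125131783-125131882 (plus strand), Nol11 at chr11:107189382-107189481 (minus), Utp18 at chr11:93885767-93885866 (minus) and Utp14b at chr1:78658340-78658439 (plus), each ending 1 base before the start. Rrp7a lies at chr15:83122952-83123051 (minus) and begins 250 bases before the start.
Nop2: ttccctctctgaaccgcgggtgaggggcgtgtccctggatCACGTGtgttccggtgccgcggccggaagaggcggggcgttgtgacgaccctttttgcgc
Nol11: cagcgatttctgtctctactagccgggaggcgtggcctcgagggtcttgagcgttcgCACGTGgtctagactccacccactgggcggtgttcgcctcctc
Utp18: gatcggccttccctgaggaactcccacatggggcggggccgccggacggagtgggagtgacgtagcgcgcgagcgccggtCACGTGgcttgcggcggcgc
Utp14b: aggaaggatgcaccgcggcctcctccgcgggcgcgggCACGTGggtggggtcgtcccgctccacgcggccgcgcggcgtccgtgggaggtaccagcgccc
Rrp7a: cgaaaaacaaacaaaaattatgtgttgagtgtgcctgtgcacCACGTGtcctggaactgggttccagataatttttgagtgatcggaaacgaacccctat

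The E-box begins 60 bases before the start in Nop2, 43 in Nol11, 20 in Utp18, 63 in Utp14b and 208 in Rrp7a. The other motifs searched on both strands were CCGGAAG (14 of 43 genes, 32.6%, against 12.9% of all), TCTCGCGA (4 genes, 9.30% against 1.59%), GCGCATGC (1 gene, 2.33% against 3.93%) and AAGATGGC (0 genes, against 3.57%). No matches of different motifs overlapped in these windows. The median GC content was 57.7% in the 51 member windows and 56.3% in all 21262. A match describes letters in a window and does not show that a factor binds there.

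Assembly factors outside the chosen symbols were lower to a like extent. From a list of 78 such genes, 76 were on the arrays. Of these, 41 were at least 2-fold lower, 0 were higher and 35 lay within 2-fold, with a median log2 ratio of -1.05 that stayed between -1.28 and -0.95 under every processing tried. Among the 75 measured on both arrays, the lowest were Pwp2, a processome subunit (41.1 and 182, log2 ratio -2.15), and Noc3l, of the large subunit (88.8 and 390, -2.14). The highest were Nvl, an ATPase of large subunit assembly (141 and 103, 0.45), and the processome protein Imp3 (1257 and 1079, 0.22, but -0.18 as deposited). This list, too, was drawn up with results of these arrays known.

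Proliferation genes went the opposite way on the same arrays. Of 14, 10 were at least 2-fold higher and 0 lower, with a median log2 ratio of 1.63. As deposited, 9 were higher and 1 was lower. Over all genes with a signal at the floor, 16.0% were at least 2-fold higher and 15.8% lower after quantile normalization. Top2a and Mki67 led with log2 ratios of 2.91 and 2.57, whereas the replication genes Mcm3 and Pcna had -0.72 and -0.25. Lower ribosome assembly transcripts thus stood beside higher mitotic transcripts, and both stood beside lower endothelial and higher fibroblast markers.

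**Figure D3:**
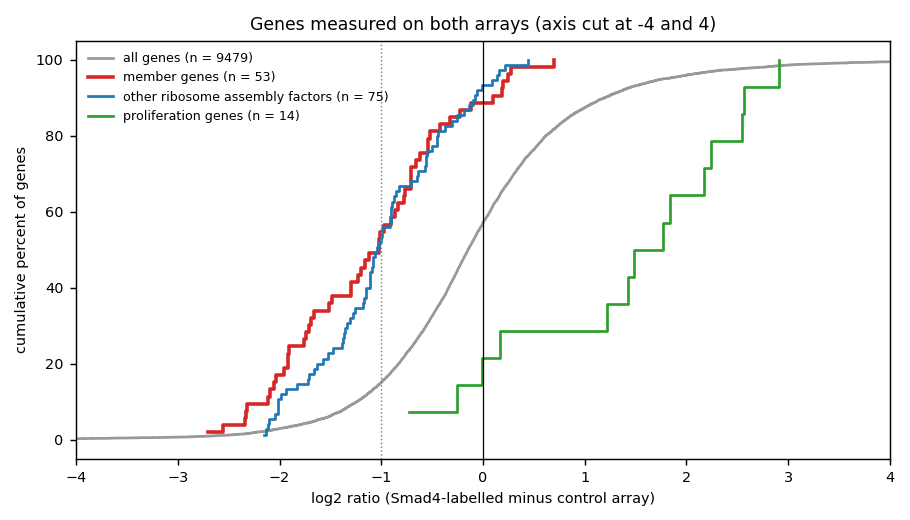
Cumulative percent of genes (y axis) by log2 ratio (x axis, Smad4-labelled array minus control array, drawn from -4 to 4) for all genes measured on both arrays (grey), the 53 members (red), 75 other ribosome assembly factors (blue) and 14 proliferation genes (green). The red and blue curves run close together to the left of the grey one, with medians near -1, and the green curve lies to its right.

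The scaling moved the counts but not their direction. As deposited, 37 members were at least 2-fold lower (19.8% of all genes), and with log2 ratios centred on their median 28 were (12.2%). Removal of a lowess trend left 27 (13.3%), and 27 genes were lower under all 4 scalings. The member median ran from -1.36 to -0.98 over every processing tried, and the median of all genes from -0.30 to 0.03.

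**Figure D4:**
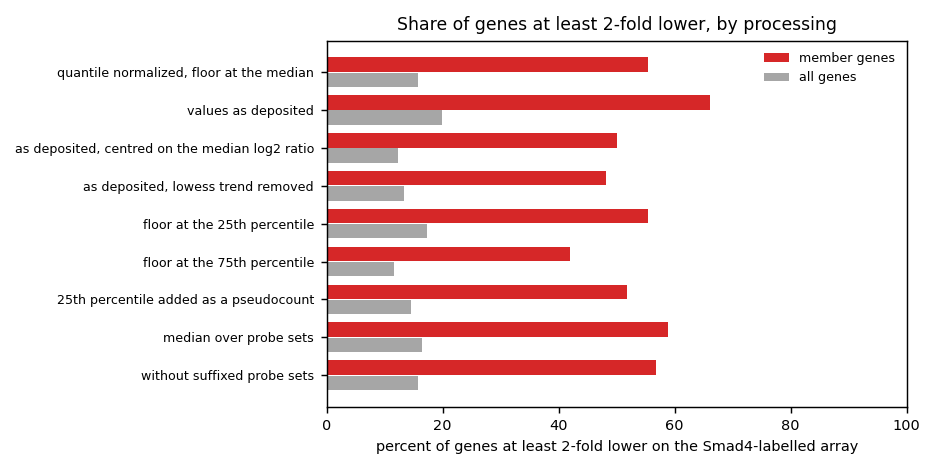
Percent of genes at least 2-fold lower on the Smad4-labelled array (x axis, from 0) under each processing (y axis), for member genes (red) and all genes (grey) with a signal at the floor. The red bars run from 42.0% to 66.1% and the grey bars from 11.6% to 19.8%.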

How the data were processed

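The authors deposited probe set signals as linear intensity from MAS5, which the submitters' processing notes name without settings. The cRNA was made from 6 µg total RNA, per the labels' protocols. No detection calls were used here. Of 45101 probe sets, 64 controls were left out. Trimmed means (2%) of the Smad4-labelled array and the control array differed by -17.2%, so log2 signals were quantile normalized. Symbols came from the platform annotation, which can be old, and RefSeq's gene table (GRCm38.p6) gave the same 56 members. Where 1 signal was under the floor, the fold is a bound against it. Calls mean 2-fold, with no test, and the steps were tested on simulated data with known changes. All members are named, and from each list, once genes under the floor on either array are set aside, the 2 with the highest ratio and the 2 with the lowest. Members and lists were chosen with earlier results of these data known. Alternatives changed scaling, floor, pseudocount, probe set choice and members. Python 3.11.15, pandas 2.3.3 and statsmodels 0.14.6 were used.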

Additional observations from a re-analysis of the deposited data

How the results depend on the processing

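The median of the members (-1.07) and the count of members at least 2-fold lower (31) kept their direction, with medians of -1.36 to -0.98 and counts of 21 to 37. The lowest count came with a floor at the 75th percentile, which left 50 members. The count of members at least 2-fold higher (1, Nol3) was 0 with that floor, 0 with the 25th percentile added as a pseudocount and 0 without Myc, Nol3 and Nol4. The RefSeq symbols changed no value. Without suffixed probe sets 5 genes, among them Myc and Gar1, had none left, and Fbl was within 2-fold (-0.92). No called gene changed sign under the alternatives that gave it a value. No paired analysis was possible because each group has 1 array. Signals near the floor of 22.8, as in Nol10, Rrp9 and Polr1b on the Smad4-labelled array, limit how well those folds are known, and without detection calls the floor is only a stand-in.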

Other observations

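Other gene groups around the pathway were lower by less. Of 12 subunits and partners of the RNA exosome, which trims ribosomal RNA precursors, 3 were at least 2-fold lower and 0 higher, with a median log2 ratio of -0.42. Exosc1 and Exosc5 had -1.90 and -1.78, and Dis3 and Exosc8 had 0.08 and -0.13. The 10 RNA polymerase II subunits had a median of -0.49, with 2 lower (Polr2g -1.40 and Polr2j -1.34), and Polr2f and Polr2e at -0.20 and -0.38. Over all genes with a signal at the floor, 15.8% were lower by 2-fold and the median was -0.14.

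Known Myc targets outside the nucleolus lay mostly below 0. Of 22 with a signal at the floor, 7 (31.8%) were at least 2-fold lower and 1, Tert, was higher, with a median of -0.67. Over all genes with such a signal the shares were 15.8% and 16.0%. Of the 21 measured on both arrays, 19 had a log2 ratio below 0, as did 57.1% of all genes measured on both. Odc1, the first enzyme of polyamine synthesis, had signals of 269 and 3378 (12.6-fold lower), a larger fold than any member measured on both arrays. Ppat, of purine synthesis, had a log2 ratio of -2.28, whereas the glycolytic Ldha and the methyltransferase Prmt5, the 2 above 0, had 0.69 and 0.21 (Prmt5 -0.06 as deposited). Tert was named after its value was seen, and it was below the floor on the control array.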
